A study of Mus musculus with 12 samples.

Results

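The genes described are 50 genes of protein folding, translocation, quality control and the unfolded protein response in the endoplasmic reticulum (ER) of mouse prostate epithelium. They were named by symbol according to function, with earlier results of these data known. Shares set beside those of all genes therefore describe chosen genes. Each gene was represented by the probe set of that single symbol with the highest mean log2(signal + 16) over the arrays. Of the 50 named genes, 49 had such a probe set, and all 49 were among the 14594 genes tested, out of 18193 genes with a single-symbol probe set. Sec61g, a translocon subunit, was covered only by a probe set that it shared with other symbols and was not analysed here.

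The study compared prostate epithelial cells of castrated and intact adult male C57BL/6 mice on 12 expression arrays. Castration removes the testes and with them the main source of androgen. Surgery took place at 8 weeks of age, tissue was taken 4 weeks later, and 3 sets of animals served as biological replicates, each with castrated and paired intact mice. Dissociated prostate was sorted by flow cytometry into luminal cells (Lin- CD49f(lo) EpCAM+), the secretory layer, and basal cells (Lin- CD49f(hi) EpCAM+), the layer beneath it. Luminal and basal cells of intact and of castrated mice thus made up 4 groups of 3 arrays; how many animals entered a set, and whether intact mice had a sham operation, is not given in the sources used here. RNA from the few sorted cells was amplified before hybridization, and a signal reflects the average of a sorted population, so fewer cells of a type and less RNA per cell cannot be told apart.

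Secreted and membrane proteins enter the ER through the translocon, lose their signal peptide, receive N-linked sugars and fold with the help of chaperones and disulfide isomerases, while proteins that fail to fold are sent back to the cytosol for degradation. When unfolded protein accumulates, the sensors IRE1 (Ern1), PERK (Eif2ak3) and ATF6 start the unfolded protein response, which raises chaperone and degradation genes through ATF6 and XBP1 and, through ATF4, a set of genes shared with amino acid shortage. Luminal cells of the prostate make large amounts of secreted protein under androgen control and are known for a well-developed ER.

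A promoter sequence that belongs to the response for which the genes were named is shown first. Of the 16 genes that fell in castrated luminal cells, 6 hold it, among them the chaperones Hspa5 and Hsp90b1. Another 7 genes that fell had a promoter entry without it, and Canx, Pdia6 and Syvn1 hold it but did not pass. The ER stress response element is a CCAAT box and a CCACG box 9 bases apart (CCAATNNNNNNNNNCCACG), known as a binding site of ATF6 together with NF-Y. It was searched on both strands of the RefSeq promoters (GRCm38.p6) from 250 bases before to 50 bases after each start site. An entry existed for 42 of the 50 genes, and 9 of these 42 (21.4%) held the element, against 37 of 27025 genes with an entry (0.137%). The 9 were Hspa5, Hsp90b1, Dnajc3, Creld2, Calr, Canx, Pdia6, Syvn1 and Derl3. The element II (ATTGGNCCACG), first described in the Herpud1 promoter, was in 2 of the 42 (4.76%), Herpud1 and Dnajb11, against 12 of 27025 genes (0.0444%). The genes were named for the response to which these elements belong. Their higher shares are therefore a description of the chosen genes and not a test. The windows of the 6 genes that hold the first element and fell in castrated luminal cells, and that of Herpud1, are printed 5′ to 3′ on the strand of the gene, with the fixed letters of the element in capitals; an element on the opposite strand reads CGTGG, 9 bases, ATTGG.
Hspa5 (chr2:34772005-34772063, plus strand): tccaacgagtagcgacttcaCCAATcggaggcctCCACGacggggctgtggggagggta
Hsp90b1 (chr10:86705618-86705676, minus strand): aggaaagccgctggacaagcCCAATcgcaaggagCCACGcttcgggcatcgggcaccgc
Hsp90b1, further match (chr10:86705513-86705571, minus strand): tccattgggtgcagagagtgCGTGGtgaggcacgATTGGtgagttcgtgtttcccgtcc
Dnajc3 (chr14:118937807-118937865, plus strand): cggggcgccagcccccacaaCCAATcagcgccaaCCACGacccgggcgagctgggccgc
Creld2 (chr15:88819500-88819558, plus strand): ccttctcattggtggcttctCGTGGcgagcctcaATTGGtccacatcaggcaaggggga
Calr (chr8:84847055-84847113, minus strand): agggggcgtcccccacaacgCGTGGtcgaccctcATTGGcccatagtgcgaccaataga
Derl3 (chr10:75893222-75893280, plus strand): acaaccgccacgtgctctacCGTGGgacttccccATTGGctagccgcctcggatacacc
Herpud1 (chr8:94386357-94386407, plus strand): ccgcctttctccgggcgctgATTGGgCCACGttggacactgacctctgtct
These matches are a description of letters; binding was not measured. A CCAAT box alone, searched after the values were seen, was in 32 of the 42 (76.2%) against 41.1% of genes, and an XBP1 site (TGACGTGG), searched likewise, was in 0 of the 42 against 0.714% of genes. The core of the ATF4 and C/EBP composite site (TGATGNAA), also searched after the values were seen, was in 2 of the 42, Herpud1 and Trib3 (4.76%), against 4.51% of genes.

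Basal markers separated the sorts, and luminal markers did so less fully. All 9 basal markers tested, Krt5, Krt14 and Trp63 among them, were lower in luminal than in basal cells of intact and of castrated mice. Of 6 luminal markers, 5 were higher in luminal cells in each. Basal arrays still held luminal marker signal. Krt18 read 35676, 33233 and 47342 in castrated basal and 32702, 40003 and 28227 in castrated luminal cells. Hoxb13 in intact basal replicate 3 (2943) lay above intact luminal replicate 3 (2662). Arrays had been scaled alike by the authors. The median signal was still 78.8 to 89.5 in intact luminal and 60.5 to 64.1 in castrated luminal arrays. The 3′ to 5′ signal ratio of Actb, a sign of RNA length, was 0.781 to 0.950 and 1.08 to 1.11 in these groups. The same ratio of Gapdh was 6.66 to 7.88 and 5.09 to 7.87, so it overlapped between them. Over all arrays the Gapdh ratio was 4.18 to 8.7. Markers of other cells moved with castration as well. The summed signal of 10 fibroblast markers was 8045 to 14688 in intact luminal, 862 to 1058 in castrated luminal, 40427 to 51636 in intact basal and 24251 to 29494 in castrated basal arrays, with 6 of 10 lower after castration in luminal and 4 of 10 in basal cells, and Col1a1, Sparc and Pdgfra below the 40th percentile of each castrated luminal array. The basal sums hide unlike changes. Dcn read 22817, 20728 and 19695 in intact and 21299, 19295 and 25683 in castrated basal cells. Col1a2 read 2559, 1294 and 4753 against 78.5, 255 and 52.3, and 8 of the 10 basal differences were below 0. Plasma and B cells are rich in ER. Their 8 measured markers summed to 192 to 474, 91.2 to 120, 437 to 997 and 198 to 492 in the same order. Jchain, the joining chain of antibody-secreting cells, lay below the 40th percentile on every array of all 4 groups. Of the 8, 3 lay below that percentile on all 3 arrays of each group except castrated luminal, where 6 did. In intact basal cells Mzb1 (68.1, 85.9 and 99.99) and Cd79a (652, 115 and 274) lay above the array percentiles of 61.1, 52.3 and 48.8. Summed signals of 5 prostatic secretory genes, in that group order, were 133680 to 216770, 5216 to 6440, 13686 to 22111 and 144 to 233. Those of 6 seminal vesicle genes, from the gland beside the prostate, were 238650 to 394830, 21239 to 40350, 27368 to 42866 and 3576 to 5331. Within the prostatic secretory list replicate 3 of both intact groups stood apart. Spink1 read 75381, 74213 and 83.4 in intact luminal and 5721, 6661 and 1.15 in intact basal cells, and Msmb read 40816, 41762 and 5532 in intact luminal cells, whereas Pbsn and Tgm4 were highest in replicate 3 of both groups. With both intact replicate 3 arrays left out, an alternative chosen after seeing the data, 14 ER genes were called with castration in luminal and 4 in basal cells, 35 and 27 between cell types in intact and castrated mice, and 4 in the interaction, against 17, 5, 39, 26 and 4 with all arrays. The luminal calls of Hyou1, Dnajb9, Sec61a1 and Ddit3 (adjusted p = 0.073, 0.0994, 0.108 and 0.0872) and the basal call of Derl3 (adjusted p = 0.0568) were then lost, as were the differences between cell types of intact mice for Ssr2, Spcs1, Ern1, Xbp1 and Atf4. The part of fibroblast, seminal vesicle and prostatic secretory RNA in the results that follow, and of luminal RNA in the basal sort, was not tested. Nor was that of replicate 3, array medians and RNA length.

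In luminal cells 16 of the 49 ER genes fell after castration, 1 rose and 32 did not pass the test (limma with Benjamini-Hochberg adjustment over all genes, adjusted p below 0.05). Among all genes tested, 5.91% were called, 2.98% lower and 2.93% higher. The median log2 difference, castrated minus intact, was -0.64 over the 49 genes and -0.09 over all genes, and 46 of the 49 values were below 0. In 32 of the 49 all 3 castrated arrays lay below all 3 intact arrays, against 16.8% of all genes, and in 1 they lay above, against 15.0%. The falls were most frequent among the chaperones of the ER lumen, where 7 of 9 passed, and 0 of the 6 oligosaccharyltransferase subunits in the set passed. Without castrated luminal replicate 1 the number of ER genes called was 11, and without castrated luminal replicate 3 it was 10, against 17 with all arrays.

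**Figure D1:**
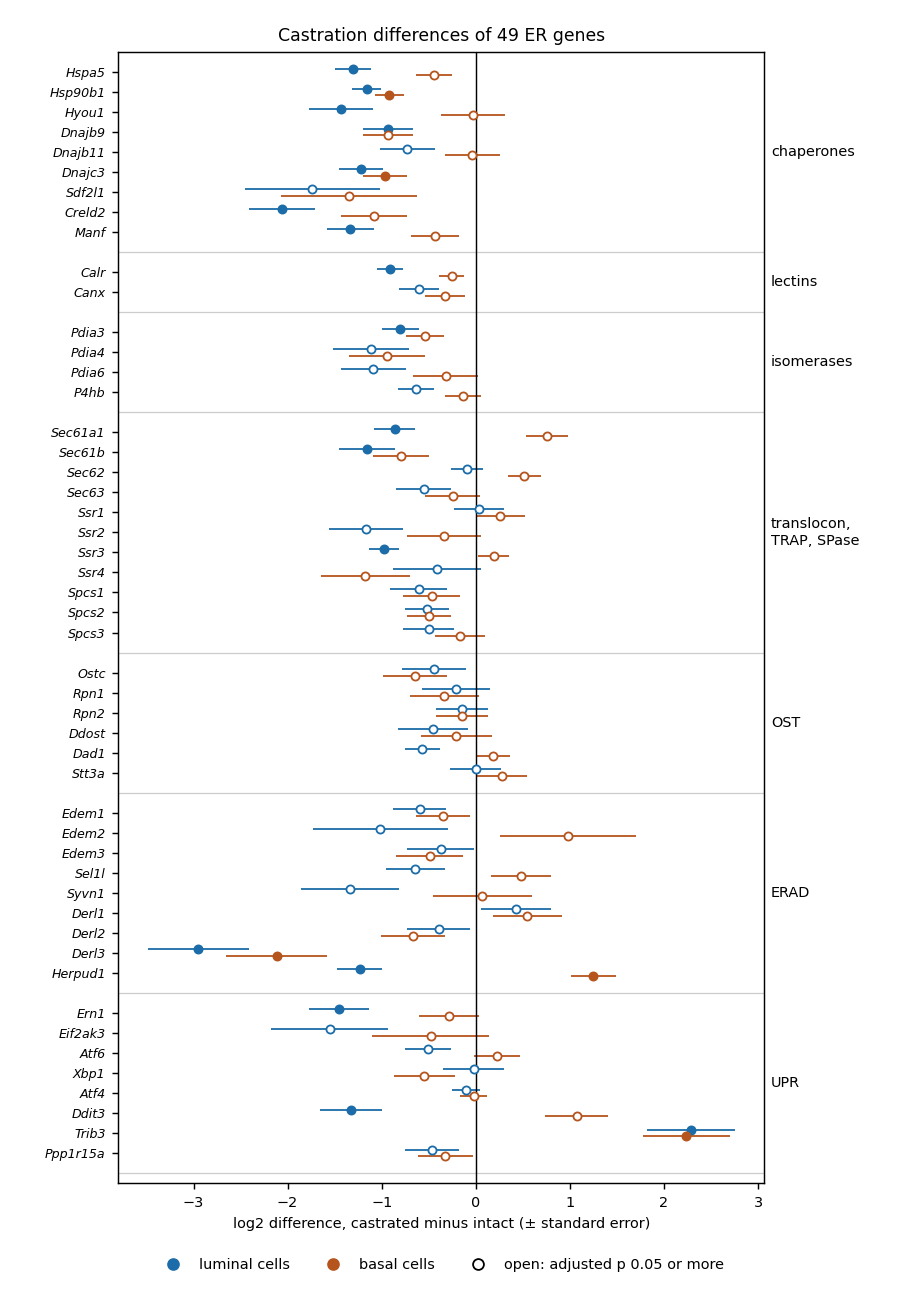
Log2 difference, castrated minus intact, of each of the 49 genes in luminal cells (blue) and basal cells (brown), grouped by function; bars are the standard error of the fit, and filled points have an adjusted p below 0.05. In luminal cells 46 of 49 points lie left of 0, with Derl3 lowest at -2.95 and Trib3 highest at 2.29; in basal cells 35 of 49 lie left of 0 and 5 are filled.

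Hspa5 (BiP, the main Hsp70 of the ER and the sensor-binding chaperone) measured 34245, 34436 and 30883 in luminal cells of intact mice and 12331, 18615 and 10454 in those of castrated mice. Basal signals were 18332, 26422 and 26978 in intact and 17884, 16667 and 17450.1 in castrated mice. The luminal groups did not overlap, and castrated luminal replicate 2 was the highest of its group. Hspa5 fell by 1.31 on the log2 scale in luminal cells (SE 0.19, 3 arrays a group, adjusted p = 0.000503), or 2.47-fold; in basal cells the difference was -0.44 (SE 0.19, adjusted p = 0.23). All log2 values here are of signal + 16, which understates changes of dim genes.

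Hsp90b1 (GRP94, the Hsp90 of the ER) read 22722, 25685 and 25719 in intact luminal, 11823, 10822 and 10563 in castrated luminal, 12291, 10918 and 13307 in intact basal and 6329, 5802 and 7164 in castrated basal cells. Castrated arrays were below intact arrays in both cell types, and each castrated group spanned a narrow range. It fell by 1.16 (SE 0.15, adjusted p = 0.000213) in luminal and by 0.92 (SE 0.15, adjusted p = 0.0046) in basal cells. After median centring of the arrays the basal value was -0.68 (adjusted p = 0.072).

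Creld2, an ER stress-inducible protein of the lumen, showed the largest change of the chaperone group. Its signals were 10318, 16606 and 15434 in intact luminal and 3654, 4066 and 2437.5 in castrated luminal cells, against 1128, 1145 and 1987 in intact basal and 1019, 628 and 407 in castrated basal cells. Intact luminal arrays stood above every other array. The luminal fall was 2.06 (SE 0.35, adjusted p = 0.00179, 4.16-fold), and the basal difference was -1.08 (SE 0.35, adjusted p = 0.111), with all 3 castrated basal arrays below all 3 intact ones.

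Hyou1 (GRP170, a nucleotide exchange factor for BiP) read 9616, 10529 and 13687 in intact and 3799.5, 4708 and 3892 in castrated luminal cells, a log2 difference of -1.435 (SE 0.34, adjusted p = 0.0184). Its basal arrays overlapped, at 1603.5, 2427 and 2497 in intact and 3113, 1037 and 2835 in castrated mice (-0.03, SE 0.34, adjusted p = 0.979). Manf, a lumenal protein secreted on ER stress, read 12142, 13772 and 11747 in intact and 6321, 4569 and 4224 in castrated luminal cells. It fell by 1.33 (SE 0.25, adjusted p = 0.00359), while basal signals of 4114, 3207 and 3740.4 against 4011, 2214 and 2246 overlapped (-0.43, adjusted p = 0.391).

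The DnaJ co-chaperones of BiP each had a luminal difference below 0 without overlap, but not all were called. Differences between these genes were not tested. Dnajc3 (p58IPK) read 14515, 17307 and 15398 in intact and 7206, 8025 and 5276 in castrated luminal cells, and 3444, 4168 and 3357 in intact and 1408, 2153 and 2119 in castrated basal cells. It fell in both, by 1.22 (SE 0.23, adjusted p = 0.0037) and by 0.96 (SE 0.23, adjusted p = 0.0357), with no overlap in either cell type. Dnajb9 (ERdj4) read 6310.3, 6541 and 6848 in intact and 3625, 3199.5 and 3479.7 in castrated luminal cells. It fell by 0.93 (SE 0.27, adjusted p = 0.0478), a call that was lost with the replicate number as a block (adjusted p = 0.062); in basal cells castrated replicate 1 at 5843 overlapped the intact range of 5589.9 to 9449 (-0.94, adjusted p = 0.0685). Dnajb11 (ERdj3) and its partner Sdf2l1 had luminal differences of -0.73 (adjusted p = 0.17) and -1.74 (SE 0.72, adjusted p = 0.188) and were not called, although their luminal groups did not overlap.

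Some calls of this group rested on single arrays. The Hyou1 call was lost without intact luminal replicate 3, castrated luminal replicate 1 or castrated luminal replicate 3 (adjusted p up to 0.0806). That of Dnajb9 was lost without any 1 of the 6 luminal arrays or intact basal replicate 2 (adjusted p up to 0.158). The basal call of Dnajc3 was lost without any 1 of 8 arrays: intact luminal replicate 2, castrated luminal replicates 1 and 2, each intact basal array and castrated basal replicates 1 and 2 (adjusted p up to 0.103). Its 4 further probe sets had basal differences of -0.08, 0.62, -0.29 and -0.31. The luminal calls of Hspa5, Hsp90b1, Creld2, Manf and Dnajc3 passed without each array in turn.

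**Figure D2:**
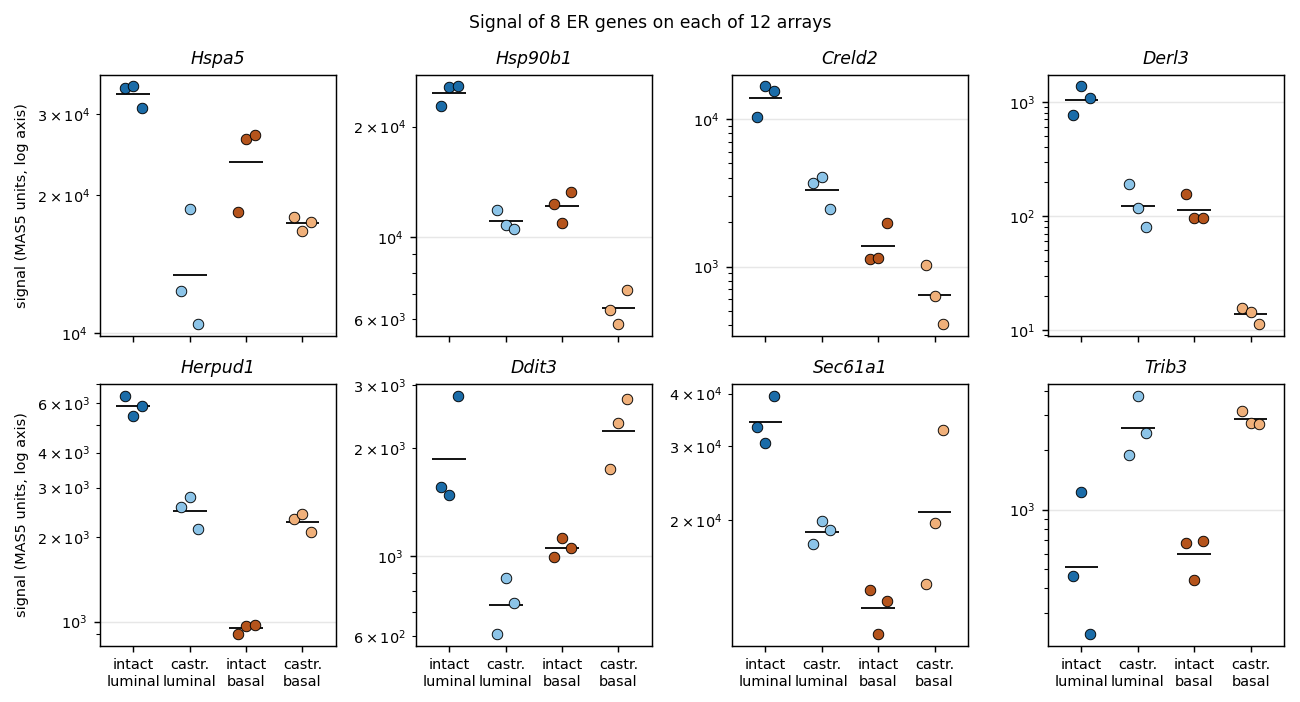
Deposited signal (MAS5 units, log axis) of 8 ER genes on each of the 12 arrays; points are arrays and the short lines the group mean taken on the log scale. Hspa5, Hsp90b1, Creld2 and Derl3 are highest in intact luminal cells; Herpud1 and Ddit3 are lower in castrated than in intact luminal cells but higher in castrated than in intact basal cells; Trib3 is higher in castrated cells of both types.

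Calreticulin and calnexin hold newly glycosylated proteins until they fold. Calr read 26287, 26639 and 32281 in intact and 15554, 15368 and 14263 in castrated luminal cells, and 15676, 18447.5 and 15614 in intact and 13618.5, 14061 and 13793 in castrated basal cells. The luminal groups lay far apart and the basal groups close together without overlap. Calr fell by 0.91 (SE 0.14, adjusted p = 0.000715) in luminal cells, and the basal difference was -0.26 (SE 0.14, adjusted p = 0.344). Canx had differences of -0.60 (SE 0.21, adjusted p = 0.111) and -0.32 (adjusted p = 0.457).

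Of the 4 disulfide isomerases, which make and rearrange disulfide bonds, Pdia3 (ERp57, the partner of both lectins) was called. Its signals were 15268, 18077 and 16088 in intact and 9930.0, 11388 and 7409 in castrated luminal cells, a fall of 0.80 (SE 0.20, adjusted p = 0.0239). The call was lost without intact luminal replicate 2, castrated luminal replicate 1 or castrated luminal replicate 3 (adjusted p up to 0.157), and after median centring (adjusted p = 0.0689). Pdia4, Pdia6 and P4hb had luminal differences of -1.11, -1.09 and -0.64 (adjusted p = 0.123, 0.075 and 0.0597), each with all 3 castrated arrays below all 3 intact arrays. None of the 4 passed in basal cells, where differences ran from -0.94 to -0.14.

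At the translocon, 3 of 11 genes fell in luminal cells and none passed in basal cells. Sec61a1, the channel subunit, read 33281, 30446 and 39464 in intact and 17571, 19889.9 and 18958 in castrated luminal cells, a fall of 0.86 (SE 0.22, adjusted p = 0.0277). In basal cells it read 13643, 10739.8 and 12877 in intact and 14095, 19678 and 32814 in castrated mice, and its castrated arrays spread more widely than those of any other group (0.76, SE 0.22, adjusted p = 0.0774). The Sec61a1 luminal call was lost without intact luminal replicate 1 or 3 or any 1 castrated luminal array (adjusted p up to 0.11), after median centring (-0.83, adjusted p = 0.097) and after quantile normalization (-0.35, adjusted p = 0.338). Its 5 further probe sets all had negative luminal differences, from -2.595 to -0.79, but basal differences of -0.77, -1.06, 0.53, 0.425 and -0.27.

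Sec61b, a small subunit of the channel, read 12061, 10857 and 10394 in intact and 6076, 4202 and 4761 in castrated luminal cells, a fall of 1.16 (SE 0.295, adjusted p = 0.0263). It lost its call without any 1 intact luminal array or castrated luminal replicate 2 or 3 (adjusted p up to 0.129) and after median centring (adjusted p = 0.0612). Ssr3, a subunit of the translocon-associated TRAP complex, read 17619, 19513 and 21631 in intact and 10475, 10822 and 8609 in castrated luminal cells, and 8500.3, 10249 and 9248 in intact and 10205, 10128 and 11550.4 in castrated basal cells. Its luminal difference was -0.975 (SE 0.16, adjusted p = 0.0014), a call that passed without each array in turn, and its basal arrays overlapped (0.19, adjusted p = 0.587). The other TRAP subunits Ssr1, Ssr2 and Ssr4 had luminal differences of 0.03, -1.17 and -0.41, the translocation factors Sec62 and Sec63 of -0.09 and -0.55, and the signal peptidase subunits Spcs1, Spcs2 and Spcs3 of -0.61, -0.52 and -0.50, none of which passed.

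The oligosaccharyltransferase transfers the sugar chain to entering proteins, and none of the 6 subunits in the set was called with castration in either cell type; further subunits, given below with the other ER genes, were. Luminal castration differences of Ostc, Rpn1, Rpn2, Ddost, Dad1 and Stt3a were -0.45, -0.21, -0.15, -0.455, -0.57 and -0.003, and basal ones ran from -0.65 to 0.28. The lowest adjusted p in luminal cells was 0.0797, for Dad1, whose 3 castrated arrays were all below the intact ones.

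Among 9 genes of ER-associated degradation, Derl3 and Herpud1 were called in both cell types, Derl3 in the same direction and Herpud1 in opposite directions. Derl3, a derlin of the retrotranslocation channel, read 772, 1363 and 1088 in intact luminal, 189, 117 and 80.2 in castrated luminal, 157, 96.8 and 95.3 in intact basal and 15.8, 14.5 and 11.3 in castrated basal cells. It fell by 2.95 in luminal cells (SE 0.54, adjusted p = 0.00291, 7.72-fold) and by 2.12 in basal cells (SE 0.54, adjusted p = 0.0464). All castrated basal values lay under the 40th percentile of their arrays (37.1 to 44.9), so the size of the basal fall depends on the constant added: it was -2.95 with 1 added (adjusted p = 0.0281) and -1.19 with 64 added (adjusted p = 0.122). The basal call was also lost with the replicate number as a block (adjusted p = 0.0638), after median centring or quantile normalization (adjusted p = 0.0666 and 0.0668), and without any 1 of 11 arrays, all but intact luminal replicate 3 (adjusted p up to 0.114).

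Herpud1 (HERP, a scaffold of the membrane ubiquitin ligase complex) read 6361, 5399.6 and 5869.6 in intact luminal and 2565.5, 2787 and 2137 in castrated luminal cells. In basal cells it read 904, 961 and 973 in intact and 2321, 2408 and 2089 in castrated mice. No group overlapped its counterpart, and the 2 castrated groups overlapped each other. Its luminal difference was -1.235 (SE 0.24, adjusted p = 0.00489), and it rose by 1.25 in basal cells (SE 0.24, adjusted p = 0.0129). A further Herpud1 probe set gave -1.08 (adjusted p = 0.0183) and 1.30 (adjusted p = 0.0146). Both calls passed without each array in turn. The basal call was lost in a fit of only the groups compared and with no intensity trend (adjusted p up to 0.118).

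The other degradation genes were not called in either cell type. The lectin-like Edem1, Edem2 and Edem3, which mark misfolded glycoproteins, had luminal differences of -0.60, -1.01 and -0.37. Sel1l and Syvn1 (HRD1), the core of the ubiquitin ligase, had -0.64 and -1.34, with no overlap between the luminal groups, and Derl1 and Derl2 had 0.42 and -0.40. Edem2 was dim in basal cells, with 78.8, 280.3 and 7.76 on the intact arrays.

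Of the 8 regulators of the unfolded protein response, 2 fell, 1 rose and 5 did not pass in luminal cells. Differences ran from -1.555 to 2.289, with 7 below 0 and 1 above, and a median of -0.485 against -0.091 over all genes. In 4 of the 8 all 3 castrated arrays lay below all 3 intact arrays, and in 1 they lay above. Not passing does not show that a gene was unchanged. Ern1, the IRE1 sensor kinase and RNase, read 3065, 3715 and 4654 in intact and 1284, 1724.5 and 1134 in castrated luminal cells, and 2204, 1522 and 1297 in intact and 1634, 992 and 1480.2 in castrated basal cells. It fell by 1.46 in luminal cells (SE 0.32, adjusted p = 0.0102), a call that was lost without castrated luminal replicate 1 or 3 (adjusted p up to 0.0662). Its 4 further probe sets gave luminal differences of -0.02, -0.91, -0.55 and -1.45, and the mean over its probe sets was not called (adjusted p = 0.163).

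Eif2ak3, the PERK sensor kinase, read 1501, 1376 and 2144 in intact and 846, 704 and 274 in castrated luminal cells without overlap (-1.555, SE 0.62, adjusted p = 0.169), and its basal signals were dim, at 93.8 to 323 in intact and 35.7 to 209 in castrated mice. Atf6, the sensor that becomes a transcription factor, read 3999, 5458 and 5278 in intact and 3780.1, 3433 and 3076 in castrated luminal cells (-0.51, SE 0.25, adjusted p = 0.27). Xbp1, the factor spliced by IRE1, read 6508, 5453 and 5391 in intact and 5856, 4607 and 6771 in castrated luminal cells, fully overlapping (-0.02, SE 0.33, adjusted p = 0.98); the array does not separate its spliced from its unspliced form. Atf4, the factor translated under PERK signalling, read 13925, 12808 and 12016 in intact and 11787, 11880.2 and 12292 in castrated luminal cells, also overlapping (-0.105, SE 0.14, adjusted p = 0.749). In basal cells none of these sensors and factors passed.

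Ddit3 (CHOP, a factor of prolonged stress) and Trib3, a pseudokinase target of ATF4 and CHOP, parted from each other in luminal cells. Ddit3 read 1561, 1481 and 2794 in intact and 609.55, 869.5 and 743 in castrated luminal cells, and 999, 1123 and 1054 in intact and 1746, 2346 and 2745 in castrated basal cells. It fell by 1.33 in luminal cells (SE 0.33, adjusted p = 0.024), and all 3 castrated basal arrays were above the intact ones (1.07, SE 0.33, adjusted p = 0.0939). The luminal Ddit3 call was lost without intact luminal replicate 3 or any 1 castrated luminal array (adjusted p up to 0.118). Trib3 read 463, 1232.5 and 236 in intact and 1883, 3750.2 and 2441 in castrated luminal cells, and 678, 441 and 697 in intact and 3151, 2728 and 2719 in castrated basal cells, with no overlap in either cell type.

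Trib3 was thus the only one of the 49 genes called higher after castration in both cell types, by 2.29 in luminal (SE 0.47, adjusted p = 0.00632, 4.89-fold) and by 2.24 in basal cells (SE 0.47, adjusted p = 0.0186, 4.72-fold). The luminal value was 1.75 (adjusted p = 0.0527) without castrated luminal replicate 2 and 2.90 (adjusted p = 0.000804) without intact luminal replicate 2, its high intact array. The basal call was lost without intact basal replicate 2 or castrated basal replicate 1 or 2 (adjusted p up to 0.0593). A further Trib3 probe set gave 2.31 (adjusted p = 0.00305) and 1.47 (adjusted p = 0.0783). Ppp1r15a (GADD34), which reverses the translational block of PERK, had differences of -0.46 and -0.32 and was not called.

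In basal cells 5 of the 49 genes were called in all, 2 higher (Herpud1 and Trib3) and 3 lower (Hsp90b1, Dnajc3 and Derl3). Over all genes 2.63% were called, 1.12% higher and 1.51% lower. The castrated arrays lay all above the intact ones in 6 of the 49 and all below in 12, against 8.72% and 11.2% of all genes. The median over the 49 was -0.32, against -0.11 over all genes, and 35 of 49 values were below 0. With median centring, under which the median over all genes was 0.127 in place of -0.11, the split was 2 higher and 0 lower. Without 1 array the count was 2 (intact basal replicate 2 or castrated basal replicate 2), 3 (intact luminal replicate 2, castrated luminal replicate 1 or 2, or intact basal replicate 3) or 4 to 5 for the others. Summed prostatic secretory signal was 13686 to 22111 in intact and 144 to 233 in castrated basal arrays. Whether luminal RNA in the basal sort entered the basal differences, or the interaction below, was not tested.

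Whether castration acted differently in luminal and basal cells was tested as an interaction. Herpud1, Ddit3, Sec61a1 and Ssr3 were called, all lower in luminal than in basal cells, and the other 45 genes did not pass; over all genes 1.15% were called, 0.473% lower and 0.678% higher. The luminal minus the basal castration difference was -2.48 for Herpud1 (SE 0.34, adjusted p = 0.0027), -2.40 for Ddit3 (SE 0.47, adjusted p = 0.0169), -1.62 for Sec61a1 (SE 0.31, adjusted p = 0.0165) and -1.16 for Ssr3 (SE 0.23, adjusted p = 0.0168). For Hspa5, Hyou1 and Calr, called in luminal cells alone, it was -0.86, -1.41 and -0.65 and did not pass (adjusted p = 0.159, 0.212 and 0.138). For Hsp90b1, Dnajc3 and Trib3 it was -0.24, -0.26 and 0.05 with standard errors of 0.22, 0.33 and 0.66.

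Herpud1 passed the interaction under all alternatives run. Without castrated luminal replicate 1 the number of ER genes called was 2, and without castrated luminal replicate 3 it was 1. Sec61a1 and Ddit3 lost the call without either of these arrays (adjusted p up to 0.0516 and 0.0673), and Ssr3 without castrated luminal replicate 3 (adjusted p = 0.0735). After quantile normalization Sec61a1 was at -1.025 (adjusted p = 0.0687), and with the mean of its probe sets it was not called either. The 7 of 8 further probe sets of these 4 genes that pointed the same way included both the Herpud1 one (-2.39, adjusted p = 0.00369) and the Ddit3 one (-2.015, adjusted p = 0.391). Of the 7, only 1 was itself called, that of Herpud1.

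**Figure D3:**
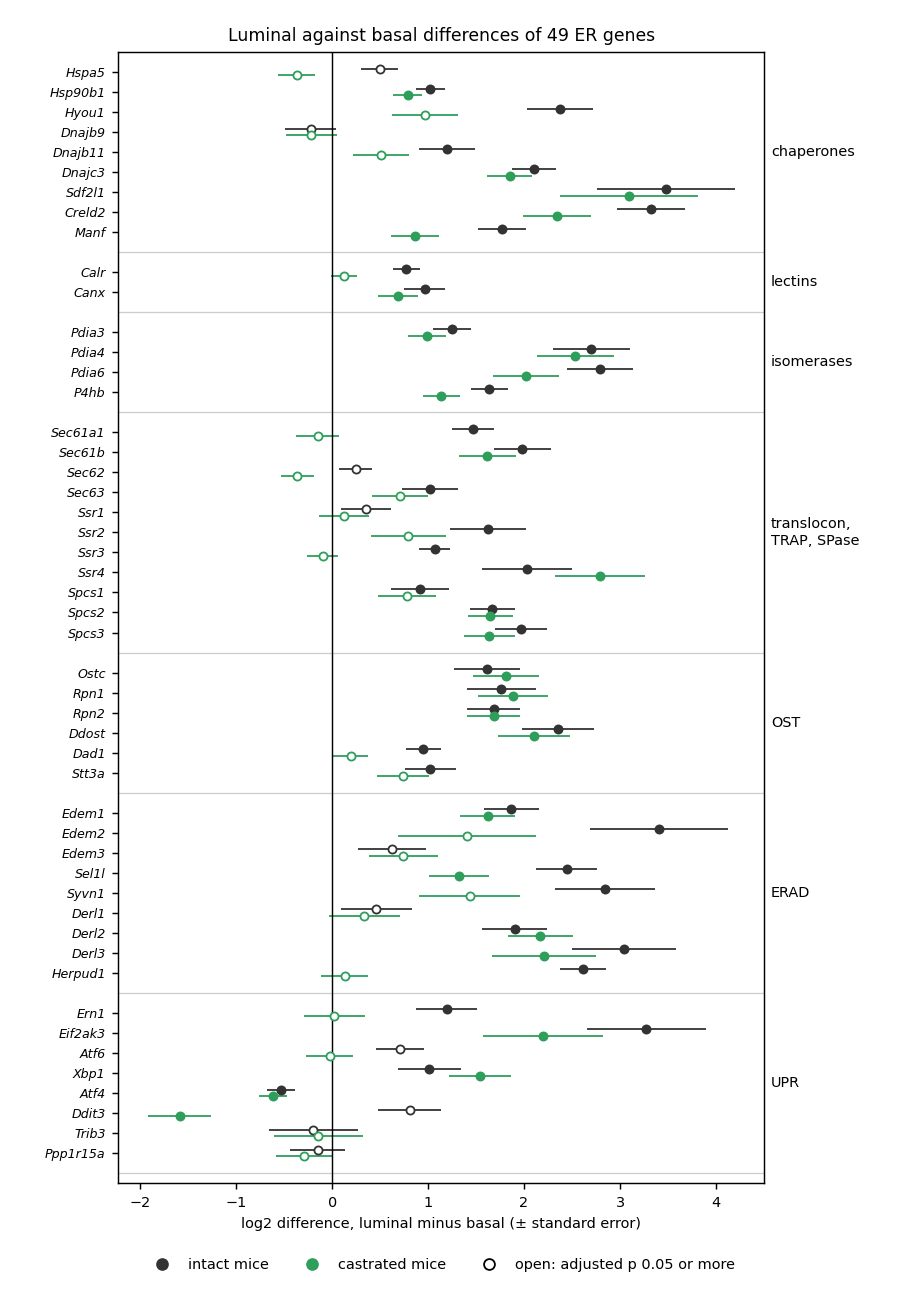
Log2 difference, luminal minus basal, of each of the 49 genes in intact mice (black) and castrated mice (green), grouped by function; bars are the standard error of the fit, and filled points have an adjusted p below 0.05. In intact mice 45 of 49 points lie right of 0 and 38 are called higher; in castrated mice 39 lie right of 0 and 24 are called higher, with Ddit3 lowest at -1.59.

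Luminal cells had higher signals than basal cells for most ER genes. In intact mice 38 of 49 were higher in luminal cells, 1 (Atf4) was lower and 10 did not pass, against 11.1% higher and 8.46% lower among all genes (19.5% in all). All 3 luminal arrays lay above all 3 basal arrays in 41 of the 49 and below them in 1, against 18.0% and 14.0% of all genes. The median over the 49 was 1.61, against 0.07 over all genes. These differences use the same intact luminal arrays as the luminal castration comparison, so the 2 comparisons are not independent. All 4 isomerases, all 6 oligosaccharyltransferase subunits, both lectins, 7 of 9 chaperones, 9 of 11 translocon genes and 7 of 9 degradation genes were higher, and 3 of 8 regulators.

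The lowest adjusted p-values in intact mice were those of Herpud1, Creld2, Dnajc3, P4hb, Pdia6 and Sel1l. Herpud1 was higher in luminal cells by 2.61 (SE 0.24, adjusted p = 1.26e-06), Creld2 by 3.32 (SE 0.35, adjusted p = 4.7e-06) and Dnajc3 by 2.10 (SE 0.23, adjusted p = 7.06e-06), with the signals given above. P4hb (PDI, the most abundant isomerase) read 17435, 16984 and 15384 in luminal and 4300.6, 6047 and 5795 in basal cells, a difference of 1.64 (SE 0.19, adjusted p = 1.38e-05). Pdia6 read 5092, 5566 and 5831 against 868, 545 and 1003 (2.79, SE 0.34, adjusted p = 2.43e-05), and Sel1l read 4514, 5183 and 2757 against 520.05, 917 and 796 (2.44, SE 0.32, adjusted p = 3.82e-05). All luminal arrays of these 6 genes lay above all basal arrays.

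The regulators again varied. Eif2ak3 was higher in luminal cells by 3.27 (SE 0.62, adjusted p = 0.00126), Ern1 by 1.19 (SE 0.32, adjusted p = 0.013) and Xbp1, at 3171, 4083 and 1778.5 in intact basal cells, by 1.01 (SE 0.33, adjusted p = 0.0362). Atf4 was lower in luminal cells by -0.53 on the log2 scale (SE 0.14, adjusted p = 0.0147), with basal signals of 16019, 19513 and 20691 above all luminal ones. Hspa5, Atf6, Ddit3, Trib3 and Ppp1r15a were not called (0.49, 0.71, 0.81, -0.20 and -0.15). The Atf4 call was lost without intact basal replicate 2 or 3 (adjusted p up to 0.0618), and with the mean of its probe sets the value was 0.144.

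Of the 39 calls in intact mice, those of Sec63, Spcs1, Stt3a, Xbp1 and Atf4 were lost without some single array. Sec63 lost it without intact luminal replicate 1 or 2 or intact basal replicate 1 or 3 (adjusted p up to 0.0973), Stt3a without intact basal replicate 1 (adjusted p = 0.058), and Xbp1 without any 1 intact luminal array, castrated luminal replicate 1 or intact basal replicate 1 or 3 (adjusted p up to 0.164). Spcs1 (0.92, adjusted p = 0.0407) lost it without 7 arrays, namely intact luminal replicates 1 and 3, each castrated luminal array and intact basal replicates 1 and 2 (adjusted p up to 0.164), and with the replicate number as a block (adjusted p = 0.0553).

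After castration the luminal excess was called in fewer genes. In castrated mice 24 of 49 were higher in luminal cells, 2 (Atf4 and Ddit3) were lower and 23 did not pass, against 11.3% higher and 7.26% lower among all genes (18.5% in all), with a median of 0.87 against 0.09. The luminal arrays lay all above the basal ones in 34 genes and all below in 3, against 23.7% and 17.5% of all genes. With median centring, under which the median over all genes was -0.36, the split was 18 higher and 4 lower, and Hspa5 was lower in luminal cells (-0.815, adjusted p = 0.0131, against -0.37 and 0.2 without centring). All 4 isomerases and 4 of 6 oligosaccharyltransferase subunits were higher, and 5 of 9 chaperones, 4 of 11 translocon genes and 4 of 9 degradation genes. A difference in count between intact and castrated mice is tested only by the interaction above, where 4 genes passed.

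Dnajc3 was higher in castrated luminal than in castrated basal cells by 1.85 (SE 0.23, adjusted p = 2.71e-05), Spcs2 by 1.65 (SE 0.23, adjusted p = 9.27e-05), Creld2 by 2.34 (SE 0.35, adjusted p = 0.000156) and Derl2 by 2.17 (SE 0.34, adjusted p = 0.000226). Spcs2, a subunit of the signal peptidase, read 6432, 5544 and 4766.5 in luminal and 1653, 1688 and 1945 in basal cells, and Derl2 read 4045, 3332 and 2908 against 851, 773 and 621. Pdia4 followed with 1987, 2634 and 1594 against 415, 331 and 279 (2.53, SE 0.40, adjusted p = 0.000264), and Rpn2 with 4148, 4973 and 3129 against 1015.5, 1506 and 1238 (1.68, SE 0.28, adjusted p = 0.000358). These 6 genes showed no overlap between the castrated groups.

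Xbp1 was higher in castrated luminal cells by 1.54 (SE 0.33, adjusted p = 0.00282), with basal signals of 2682, 2244 and 1217. Atf4 was lower by -0.61 (SE 0.14, adjusted p = 0.00596), with basal signals of 18176, 17603 and 19333, a call that was lost after quantile normalization (adjusted p = 0.221). Ddit3 was lower by -1.59 (SE 0.33, adjusted p = 0.00255), all castrated luminal arrays lying below all castrated basal ones. Herpud1, Sec61a1 and Ssr3, higher in luminal cells of intact mice, had values of 0.13, -0.15 and -0.10 here (adjusted p = 0.767, 0.688 and 0.73).

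Among the 26 calls in castrated mice, 15 passed under all 25 alternatives and 4 were lost without some single array. Manf (0.87) lost it without castrated luminal replicate 1 or 2 or castrated basal replicate 2 or 3 (adjusted p up to 0.134). Canx (0.69) lost it without any 1 castrated luminal array or castrated basal replicate 2 or 3 (adjusted p up to 0.134), Derl3 (2.21) without castrated luminal replicate 1 (adjusted p = 0.0619), and Eif2ak3 (2.195) without castrated luminal replicate 1 or 2 or castrated basal replicate 1 (adjusted p up to 0.107).

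**Figure D4:**
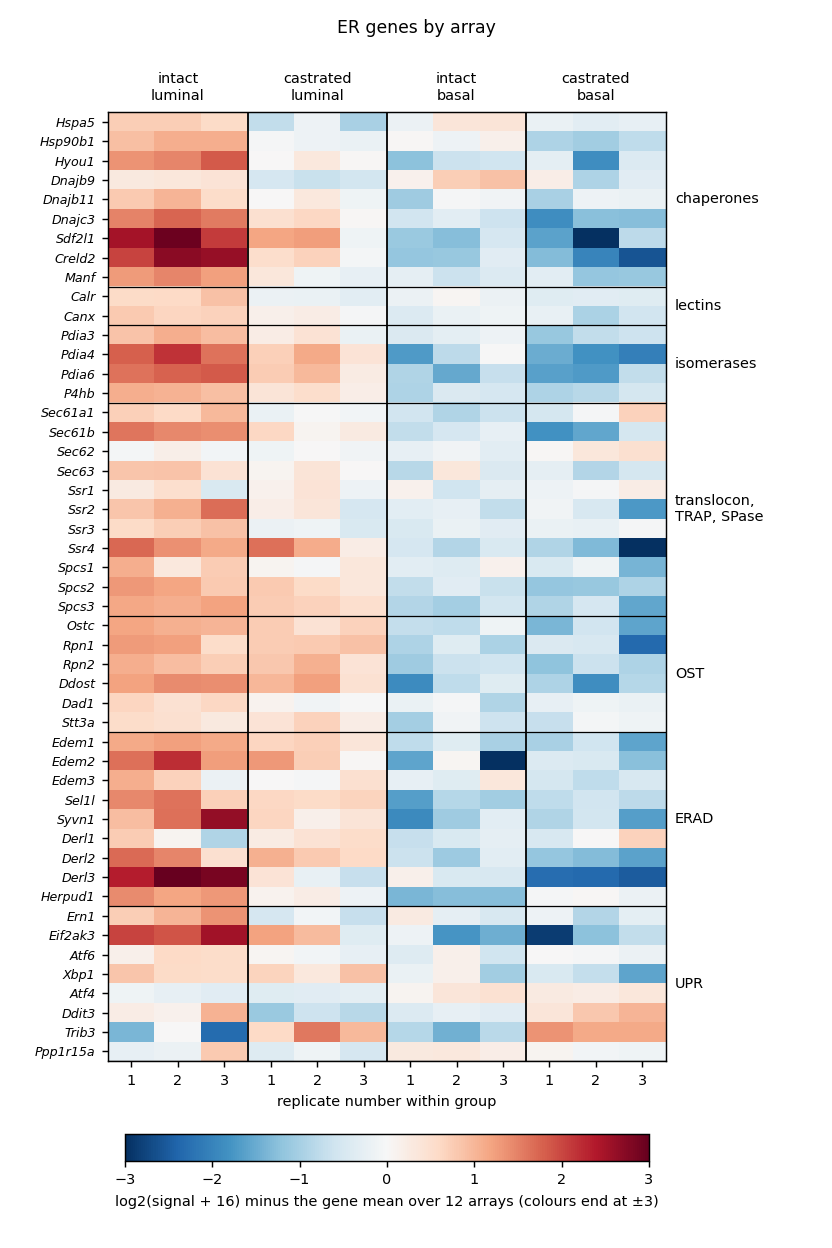
Log2(signal + 16) of each of the 49 genes (rows, by function) on each of the 12 arrays (columns, by group and replicate number), less the mean of the gene over the arrays; colours end at ±3, beyond which 4 values lie, the lowest at -4.57 and the highest at 3.16. Most rows are red in intact luminal and blue in basal arrays; Trib3 is red in both castrated groups, and Herpud1 is lowest in the intact basal arrays.

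The 9 genes with the ER stress response element had a median luminal castration difference of -1.22, from -2.95 to -0.60, and 6 of them fell. The windows of this element printed above are those of the 6 that fell, so they were chosen by that outcome. Canx, Pdia6 and Syvn1, which also hold the element, did not pass. Among the 32 other tested genes with a promoter entry, 7 fell and 1 rose, with a median of -0.58. Over all genes 2.98% were lower and 2.93% higher. In basal cells 3 of the 9 fell, with a median of -0.44. Of the 32, 0 fell and 2 rose there, with a median of -0.26, and over all genes 1.51% were lower and 1.12% higher. The basal calls of Hsp90b1, Dnajc3 and Derl3 were lost under 2, 13 and 19 of 25 alternatives. Hspa5, Hsp90b1, Dnajc3 and Creld2 are also lumenal chaperones, the group where luminal falls were most frequent. The element was not tested apart from function. Herpud1, with element II and not the first element, was the gene that fell in luminal and rose in basal cells. Dnajb11, the other holder of element II, was not called in either (-0.73, adjusted p = 0.17, and -0.04, adjusted p = 0.964).

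Other genes of the same pathways were taken from further lists. Of 109 tested genes of folding, targeting, glycosylation, degradation and stress-response lists, 1 rose (0.917%) and 6 fell (5.50%) in castrated luminal cells, against 2.93% and 2.98% of all genes, with a median of -0.41 against -0.09. Srpr, the receptor of the signal recognition particle, fell from a mean signal of 15065 to 7249 (-1.08, SE 0.19, adjusted p = 0.00251), and its interaction value of -1.55 was the only one of the 109 that passed (adjusted p = 0.00906). Serp1, a translocon stabiliser, fell by 0.85 (adjusted p = 0.00758), the oligosaccharyltransferase subunits Krtcap2 and Stt3b by 1.16 and 0.98 (adjusted p = 0.0192 and 0.024), the degradation factor Ubxn4 by 0.74 (adjusted p = 0.024) and the stress-induced factor Atf3 by 0.69 (adjusted p = 0.0229). Slc7a11, the cystine transporter and an ATF4 target, rose by 2.69 (SE 0.735, adjusted p = 0.0385).

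In castrated basal cells 3 of the 109 rose and 3 fell (2.75% each, against 1.12% and 1.51% of all genes). The 3 that rose were from the list of 25 further genes of the unfolded protein and integrated stress responses, of which 22 did not pass and 10 had values below 0, with a median of 0.41. Chac1, a glutathione-degrading enzyme, rose from a mean signal of 932 to 4798 (2.32, SE 0.31, adjusted p = 0.000716). Psat1 of serine synthesis rose by 1.09 (SE 0.21, adjusted p = 0.0127) and Asns, asparagine synthetase, by 1.11 (SE 0.26, adjusted p = 0.0324). In luminal cells Chac1, Psat1 and Asns had differences of 0.525, -0.055 and -0.16 and were not called, and their interaction values did not pass (adjusted p = 0.0567, 0.0781 and 0.115). The folding sensor Uggt1, the chaperone Erp29 and the oligosaccharyltransferase subunit Magt1 fell by 1.16, 1.37 and 1.64 (adjusted p = 0.0291, 0.0315 and 0.0315).

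Several of these calls depended on single arrays. The Chac1 and Srpr calls passed without each array in turn, although Srpr was not called in luminal cells with the mean of its probe sets (adjusted p = 0.521). Psat1 lost its call without castrated basal replicate 2 (adjusted p = 0.054) and Serp1 without castrated luminal replicate 3 (adjusted p = 0.0535). Asns, Uggt1, Erp29 and Magt1 each lost theirs without any 1 of 7 arrays (adjusted p up to 0.0939). These were every castrated luminal array, intact basal replicates 2 and 3 and castrated basal replicate 3 for all 4 genes, with castrated basal replicate 2 for Asns and Uggt1 and castrated basal replicate 1 for Erp29 and Magt1. Krtcap2, Stt3b and Ubxn4 lost theirs without intact luminal replicate 1 or 2 or castrated luminal replicate 3 (adjusted p up to 0.158), Krtcap2 also without castrated luminal replicate 2 and the other two without castrated luminal replicate 1, and Atf3 and Slc7a11 without intact luminal replicate 1 or 3 or any 1 castrated luminal array (adjusted p up to 0.171).

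Further probe sets of the same genes offered a check on the choice of 1 per gene. Of 74 further probe sets of 35 genes, 63 pointed the same way as the chosen one in the luminal castration comparison, 50 in the basal one, 67 between cell types in intact and 56 in castrated mice. Among the genes called in the luminal castration comparison all 25 further probe sets pointed the same way and 9 were themselves called. For the basal comparison it was 6 of 7, with 1 called, that of Herpud1.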

How the data were processed

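Values were the signal intensities of 12 Affymetrix arrays that the authors deposited, made with MAS5 per the submitters' processing notes (version not given in the sources used here); each array had a trimmed (2%) mean of 500. Of 45101 probe sets, 64 were controls, 34945 had 1 gene symbol in the platform annotation, 932 had several and 9160 had none here. For each gene the probe set with the highest mean log2(signal + 16) was kept, and genes above the 40th percentile of the array on at least 3 arrays were tested. The constant 16 and the log2 step were added here to the deposited values.

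The 4 groups of 3 arrays, taken from the labels, were fitted together in limma 3.58.1 (R 4.3.3) with an intensity trend and 8 residual degrees of freedom, giving 5 contrasts with Benjamini-Hochberg adjustment over all genes tested and a threshold of 0.05. The fit was tested on simulated data. Figures were drawn in matplotlib 3.10.9, and tables were built in pandas 2.3.3 and numpy 2.4.6 under Python 3.11.15. The number of arrays limits the precision. The genes and lists were chosen with earlier results of these data known.

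Every gene of the set is named; array values are given for genes called with castration or in the interaction, for the 6 of lowest adjusted p in each direction between cell types, and for Hspa5, Hsp90b1 and the main regulators. Genes of the further lists are those called, at most 4 per list and comparison. The Edem2 basal signals were added after its values were seen.

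Replicate numbers are shared by the groups in the labels, and the series design speaks of 3 sets with paired intact animals. Deviations of same-numbered arrays from their group means correlated between -0.00756 and 0.0260, with 0 pairs over 0.1. A fit with the replicate number as a block was an alternative, as were 12 other settings and leaving out each of the 12 arrays; leaving out both intact replicate 3 arrays together was chosen after seeing the data.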

Additional observations from a re-analysis of the deposited data

Results flagged for a closer look

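For 4 genes the effect of castration was called different between luminal and basal cells by the interaction term of the limma fit. Of these calls that of Herpud1 passed under all 24 alternatives, and the other 3 were each lost without some single array. The luminal minus the basal log2 difference was -2.48 for Herpud1 (adjusted p = 0.0027), -2.40 for Ddit3 (adjusted p = 0.0169), -1.62 for Sec61a1 (adjusted p = 0.0165) and -1.16 for Ssr3 (adjusted p = 0.0168). All 4 were lower after castration in luminal cells, by -1.235, -1.33, -0.86 and -0.975. In basal cells the values were 1.25, 1.07, 0.76 and 0.19, of which the first passed the test. Groups of 3 arrays were not searched for single outlying arrays.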

How the results depend on the processing

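No call made for a castration comparison or the interaction changed direction under the alternatives run. Of the luminal castration calls, those of Hspa5, Hsp90b1, Creld2, Manf, Derl3 and Herpud1 passed under all 25 alternatives; of the basal calls 0 of 5 did, and of the interaction calls that of Herpud1 did. In luminal cells 17 genes were called, against 26 in a fit of only the groups compared, 26 with array weights and 8 with no intensity trend, and 10 to 20 when each array was left out. In basal cells 5 were called, against 2 with median centring, 2 with only the groups compared, 1 with no intensity trend and 3 with array weights, and 2 to 5 when each array was left out. The interaction had 4 calls, 1 with no intensity trend and 1 to 5 when each array was left out. The 39 and 26 calls between cell types stayed within 1.5 times in intact and castrated mice, but Atf4 turned from -0.53 to 0.144 in intact mice with the mean of its probe sets. The cause of these shifts was not tested. Median centring moved the median over all genes from -0.11 to 0.127 in the basal castration comparison, from 0.07 to -0.17 and from 0.09 to -0.36 between cell types in intact and castrated mice, and from 0.03 to -0.18 in the interaction. With the replicate block, 16, 4, 38, 26 and 4 genes were called in the luminal and basal castration comparisons, between cell types in intact and castrated mice, and in the interaction; besides Dnajb9, Derl3 and Spcs1 it changed no other call. Dim signals limit Derl3, Edem2, Sdf2l1 and Eif2ak3 in basal cells.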
